A study of Mus musculus with 2 samples.

Results

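The 10 genes described here are immediate early genes (Fos, Jun, Junb, Egr1, Atf3, Ier2, Dusp1 and Zfp36) and the stress-inducible Hsp70 genes Hspa1a and Hspa1b, taken as a set because tissue dissociation is known to induce them. They were found by symbol among the 30905 genes listed for both libraries of a single-cell RNA-seq experiment on mouse retina at postnatal day 7, and all 10 had counts in both. The Control library was made from 2 retinas of littermate control pups, whose alleles at Mettl3 and Six3-Cre are not given by the labels, and the Mettl3-CKO library from 2 retinas of Six3-Cre; Mettl3 floxed/floxed pups of that litter, with Cre driven in retinal progenitors (RPCs). METTL3 is the enzyme that puts the m6A mark on RNA. All retinas were digested with papain, the 2 retinas of a genotype were mixed before capture on the 10x Genomics 3′ platform, and there was 1 library per genotype. As every retina was dissociated, transcripts present beforehand cannot be told apart from those induced by dissociation.

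With 1 library per genotype there is no replicate check, so no test between genotypes was possible and every difference below is one between these libraries. Intervals are 95% intervals that cover counting error only: exact Poisson for a level, exact conditional binomial for a ratio and Clopper-Pearson for a share of cells. Those of levels and ratios treat each UMI as an independent draw, so they leave out spread between cells as well as between animals. An interval that excludes 1 is thus no measure of certainty about a library or a genotype. Levels are UMIs (unique molecular identifiers, 1 per captured transcript) scaled to a total of 1000000 in the same cells, written CPM, and a UMI count does not scale with transcript length. A ratio is the Mettl3-CKO level divided by the Control level. The complete cells numbered 3994 with a median of 4520.5 UMIs in Control and 3109 with a median of 5207 in Mettl3-CKO, and the libraries shared 5 cell barcodes. Mettl3 itself was at 39.5 CPM in Control and 33.1 CPM in Mettl3-CKO, a ratio of 0.837 (0.754 to 0.928), and 3′ counts need not fall in the deleted part of the gene. Xist, the X-inactivation RNA of female cells, had a UMI in 30 Control cells and in 1751 Mettl3-CKO cells, so female cells were far rarer in Control, and sex cannot be told apart from genotype here.

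Immediate early genes are transcribed within minutes of a stimulus without new protein synthesis, as pre-assembled factors such as SRF with its Elk partners and CREB are phosphorylated by kinases of the MAPK and calcium pathways. FOS, JUN and JUNB are subunits of the AP-1 transcription factor, EGR1 and ATF3 are transcription factors that act beside it, and DUSP1 and ZFP36 close the response, the former by dephosphorylating MAP kinases and the latter by directing AU-rich mRNAs to decay. HSPA1A and HSPA1B are the inducible Hsp70 chaperones, switched on by heat shock factor when proteins misfold. Their mRNAs are short-lived or low in resting tissue, and enzymatic dissociation of tissue at warm temperature induces the whole group.

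The windows before these genes held some short motifs in common and others not. Sites outside the window were not searched, so a missing match does not show that an input is lacking. RefSeq promoter entries on GRCm38.p6 were used for 8 of the 10 genes (not for Egr1 or Ier2), and the 250 bases before each start were searched on both strands. The motifs were the heat shock element GAANNTTC or TTCNNGAA, present in 12.8% of the 32851 promoters of the table, the CRE half-site TGACG, present in 17.8%, and the CArG box bound by SRF, present in 1.47%. The CRE half-site occurred 2 times before Fos, 3 times before Dusp1 and 1 time each before Junb and Atf3. A pair of the Dusp1 matches are the overlapping strands of 1 full CRE, TGACGTCA, which 1.55% of promoters hold. The heat shock element occurred 1 time each before Hspa1a, Hspa1b and Jun, and the CArG box 1 time before Zfp36. These matches describe the letters in the window and no binding was measured. The 5 promoters below stand for the 3 patterns described in the results (Hspa1a and Hspa1b highest in cone-like cells, Fos in Müller-like cells, Dusp1 and Zfp36 in microglia-like cells) and are printed 5′ to 3′ on the strand of the gene with motif matches in capitals. They are Hspa1a (chr17:34972157-34972406, minus strand), Hspa1b (chr17:34959239-34959488, minus strand), Fos (chr12:85473640-85473889, plus strand), Dusp1 (chr17:26508473-26508722, minus strand) and Zfp36 (chr7:28379229-28379478, minus strand).
Hspa1a: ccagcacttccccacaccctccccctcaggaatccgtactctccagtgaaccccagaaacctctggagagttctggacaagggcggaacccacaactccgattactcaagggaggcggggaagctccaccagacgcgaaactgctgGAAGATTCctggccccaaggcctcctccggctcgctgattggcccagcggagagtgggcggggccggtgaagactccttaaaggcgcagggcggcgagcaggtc
Hspa1b: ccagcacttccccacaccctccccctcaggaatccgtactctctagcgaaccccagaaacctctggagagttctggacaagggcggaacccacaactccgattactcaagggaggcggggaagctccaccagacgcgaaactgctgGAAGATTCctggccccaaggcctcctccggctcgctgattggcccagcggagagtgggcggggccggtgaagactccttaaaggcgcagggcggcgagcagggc
Fos: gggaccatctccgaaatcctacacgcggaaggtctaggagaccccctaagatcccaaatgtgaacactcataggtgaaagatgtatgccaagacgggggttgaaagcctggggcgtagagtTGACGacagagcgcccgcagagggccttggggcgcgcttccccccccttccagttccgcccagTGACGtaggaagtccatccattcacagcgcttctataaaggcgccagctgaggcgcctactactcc
Dusp1: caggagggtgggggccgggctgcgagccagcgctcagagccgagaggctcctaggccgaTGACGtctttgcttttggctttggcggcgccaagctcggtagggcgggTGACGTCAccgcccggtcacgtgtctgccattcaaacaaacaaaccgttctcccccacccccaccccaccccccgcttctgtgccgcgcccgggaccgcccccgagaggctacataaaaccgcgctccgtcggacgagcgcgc
Zfp36: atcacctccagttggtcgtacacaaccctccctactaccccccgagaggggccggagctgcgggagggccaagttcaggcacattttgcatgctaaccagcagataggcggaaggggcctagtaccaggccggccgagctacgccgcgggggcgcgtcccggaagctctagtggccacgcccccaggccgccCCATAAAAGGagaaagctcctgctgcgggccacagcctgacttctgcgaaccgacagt

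The Hspa1a and Hspa1b promoters were identical at 247 of 250 bases, and the genes lie 9951 bases apart. The last 300 bases of their GENCODE transcripts, where 3′ reads fall, were the same in 187 of 354 aligned columns, against 85.5% identity over the whole transcripts. Reads from the more alike part are uncertain between the genes, and the sum of both is therefore given as well. Hspa1a overlaps Gm20481 on the opposite strand over 2225 bases.

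Taken over all cells, the summed immediate early level was nearly the same in both libraries. The 8 immediate early genes together made up 3897 CPM (3870 to 3924) in Control and 3876 CPM (3848 to 3903) in Mettl3-CKO, a ratio of 0.995 (0.985 to 1). None of the 10 genes passed 1.5-fold in either direction, where 8.55% of the 13146 genes with at least 50 UMIs did. Fos supplied 45.4% of the summed UMIs in Control and 44.7% in Mettl3-CKO, Jun 17.6% and 16.6%, and Atf3 and Zfp36 less than 1% each.

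Single genes departed from 1 by modest amounts. Zfp36 had the highest ratio of the immediate early genes, 1.29 (1.15 to 1.46), from 22.7 CPM in Control to 29.4 CPM in Mettl3-CKO. Egr1 followed at 1.16 (1.13 to 1.19), from 535 to 618 CPM. Dusp1 had the lowest ratio, 0.845 (0.805 to 0.886), from 178 to 150 CPM. The ratio was 0.978 for Fos, 0.941 for Jun, 1.03 for Junb, 1.02 for Atf3 and 0.983 for Ier2. The Atf3 value joined parts that went opposite ways. Microglia-like cells held 74 of 198 Atf3 UMIs in Control and 125 of 192 in Mettl3-CKO. The other cells together thus held fewer in Mettl3-CKO. Without clusters of a median under 2000 UMIs, the microglia-like one among them, the Atf3 ratio and its interval lay below 1. In cells of at least 4000 UMIs the Atf3 ratio was below 1 with Xist and above 1 without. Both Hsp70 genes were rare: Hspa1a was at 4.72 and 5.81 CPM, Hspa1b at 2.29 and 2.05 CPM, and the interval of either ratio held 1.

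Near equality over all cells sat on a different makeup of the libraries. The Mettl3-CKO library had more RPC-like cells (9.17% against 4.66%) and more neurogenic precursor-like cells (15.1% against 9.21%), both high in these transcripts. It had fewer rod-like cells (24.7% against 32.8%), which are low. Müller-like cells, the highest in Control, were also fewer (7.53% against 9.31%), a shift that works the other way. With every cluster given its Control share of UMIs, the summed ratio over all cells was 0.931, a calculation chosen after the data were seen. Among the 24 clusters taken singly, the interval of the summed ratio lay below 1 in 10, above 1 in 7 and across 1 in 7.

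The classes were defined by clustering without the 10 genes or any related gene and named from markers: Müller-like clusters were led by Rlbp1 and Slc1a3, rod-like by Sag and Nr2e3, cone-like by Opn1sw and Gnat2, bipolar-like by Isl1 and Grm6, amacrine-like by Ptf1a and Tfap2b, RPC-like by Top2a and Mki67, neurogenic precursor-like by Neurog2, Dll1 and Atoh7, and microglia-like by C1qa and Tyrobp. One neurogenic precursor-like cluster also held 7 Müller markers at 1.5-fold or more. At a finer clustering (Leiden resolution 2), a cluster of 150 Control and 253 Mettl3-CKO cells led by Hes5 and Sox8 was named Müller-like. Only 69 and 72 cells were then named neurogenic precursor-like, against 368 and 468 in the main classes. Cells of unnamed clusters made up 35.8% of the Control library and 36.0% of the other, and their summed level was 2591 and 2110 CPM, a ratio of 0.814 (0.795 to 0.834).

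The summed immediate early level differed far more between classes than between the libraries within a class. The summed level in Control was 9477 CPM in Müller-like cells, 7689 in microglia-like, 6169 in neurogenic precursor-like and 5792 in RPC-like cells. It was 2674 CPM in amacrine-like, 2333 in cone-like, 1454 in rod-like and 1099 in bipolar-like cells. Glia and dividing or newly postmitotic cells were thus high and differentiating neurons low. In Mettl3-CKO the corresponding levels were 8326, 8272, 6241, 6363, 3150, 2365, 1385 and 928 CPM. Clusters of the same class also lay far apart. A deep and a low-depth Müller-like cluster differed 11.3-fold in Control and 8.15-fold in Mettl3-CKO. A deep and a low-depth RPC-like cluster differed 14.1-fold and 3.92-fold. How much of the spread between classes goes with cell type rather than depth or cell quality was not tested.

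Fos, the inducible AP-1 subunit, had the same order of the 8 classes in both libraries. It was highest in Müller-like cells, at 4486 CPM in Control and 3883 CPM in Mettl3-CKO, and next in RPC-like cells, at 2735 and 2900 CPM. Neurogenic precursor-like cells, at 2648 and 2676 CPM, lay so close to the RPC-like cells in Control that the intervals overlapped. The lowest level was 557 and 416 CPM in bipolar-like cells, 8.06-fold below Müller-like cells in Control and 9.33-fold in Mettl3-CKO. Jun, the AP-1 partner of FOS, was high in Müller-like cells (1512 and 1353 CPM) and equally so in microglia-like cells (1479 and 1410 CPM), whose intervals overlapped. In rods Jun was at 408 and 321 CPM and made up 28.1% and 23.2% of the immediate early UMIs, a larger share than in any other class. Junb, which forms less active AP-1 dimers, was in contrast at its highest level in microglia-like cells, at 1272 and 1354 CPM against 257 and 264 CPM in Müller-like cells, the next class. Being few, the microglia-like cells still held only 271 of 3204 Junb UMIs in Control and 337 of 3146 in Mettl3-CKO.

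**Figure D1:**
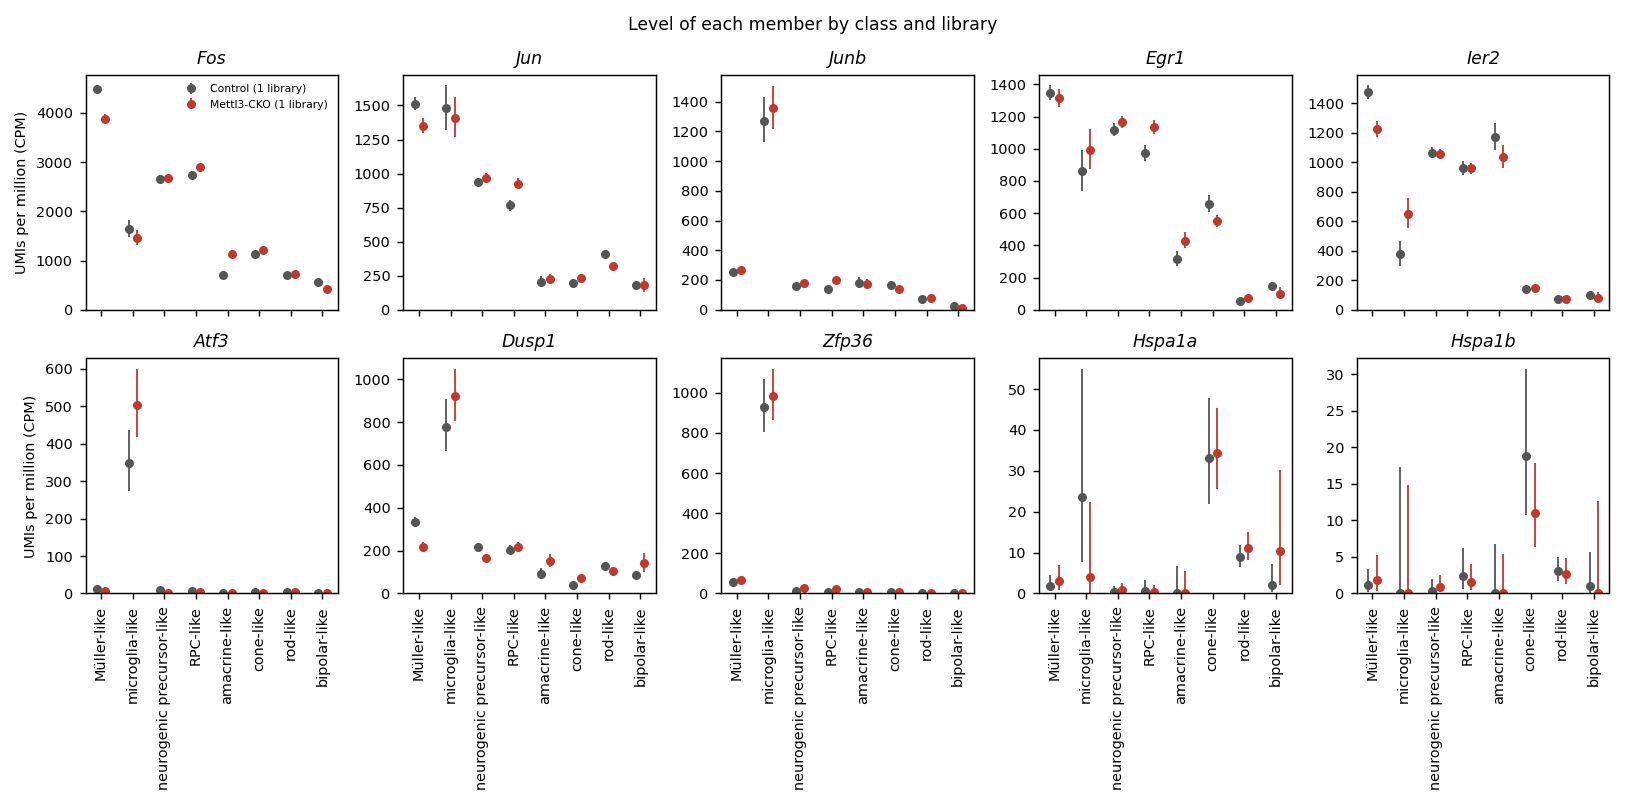
Level of each of the 10 genes in CPM (linear axes that differ between panels) for 8 classes, with 1 point per library and bars for the exact 95% Poisson interval. Fos peaks in Müller-like cells (4486 and 3883 CPM), Junb, Atf3, Dusp1 and Zfp36 in microglia-like cells, and Hspa1a and Hspa1b in cone-like cells.

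Egr1 and Ier2 were lowest in rod-like cells, with bipolar-like cells close by. Egr1, a zinc finger transcription factor, was at 1349 and 1314 CPM in Müller-like cells and at 56.2 and 74.0 CPM in rod-like cells, a difference of 24-fold in Control and 17.8-fold in Mettl3-CKO. Bipolar-like cells held 146 and 96.3 CPM of Egr1, and cone-like cells, the other photoreceptor class, 658 and 549 CPM. Ier2, a short immediate early protein of the nucleus, was at 1473 and 1224 CPM in Müller-like cells and at 71.1 and 75.5 CPM in rod-like cells. Bipolar-like cells were at 102 and 82.5 CPM of Ier2, and in Mettl3-CKO the intervals of rod-like and bipolar-like cells overlapped for both genes. Amacrine-like cells were the exception among the neurons: they held 1169 and 1035 CPM of Ier2, near the 1064 and 1052 CPM of neurogenic precursor-like cells, and Ier2 gave 43.7% and 32.9% of their immediate early UMIs. In rod-like cells Ier2 gave 4.89% and 5.45%.

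The same contrast stood in the share of cells with at least 1 UMI, but depth differs between classes. Egr1 was detected in 68.3% of Müller-like and 9.91% of rod-like Control cells, with medians of 7941.5 and 4050.5 UMIs. With each cell thinned to 1000 UMIs the shares were 59.1% and 3.30%. No retinal class is known to lack these transcripts, so no background was measured. These classes were taken as the highest and the lowest in Egr1 level, so the gap at equal depth describes the range and tests nothing. In Mettl3-CKO the thinned shares were 63.3% and 4.14%.

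Atf3, Dusp1 and Zfp36, a stress-induced repressor and both feedback genes, were highest in microglia-like cells. Zfp36 was at 929 and 984 CPM in microglia-like cells, 55.5 and 65.4 CPM in Müller-like cells and at most 28.5 CPM in any other class. Atf3 was at 347 and 502 CPM in microglia-like cells and at most 12.1 CPM elsewhere. Of all Atf3 UMIs, the 34 and 30 microglia-like cells held 74 of 198 in Control and 125 of 192 in Mettl3-CKO. Dusp1 was at 779 and 920 CPM in microglia-like, 332 and 217 CPM in Müller-like and 38.9 and 71.6 CPM in cone-like cells, its lowest class. Microglia arise outside the retina and are not descended from RPCs, and these cells were few, with medians of 1500.5 and 1459.5 UMIs.

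The Hsp70 genes did not follow the immediate early genes. Their sum was highest in cone-like cells, at 51.9 CPM (37.7 to 69.7) in Control and 45.4 CPM (35.1 to 57.8) in Mettl3-CKO. Rod-like cells, the next class with more than 10 UMIs in a library, held 12 and 13.9 CPM, so cones were 4.32-fold (2.87 to 6.46) and 3.27-fold (2.25 to 4.75) above rods. Hspa1a was detected in 19.4% of Control and 38.5% of Mettl3-CKO cone-like cells, but the median depth of those cells was 8298 and 12840 UMIs, and at 1000 UMIs a cell the shares were 2.15% and 2.88%. Müller-like cells, highest in Fos, had 8 Hsp70 UMIs in each library, at 3.02 and 4.75 CPM. Amacrine-like cells had none. There, 3 UMIs would have been 5.45 CPM in the 73 Control cells and 4.44 CPM in the 64 Mettl3-CKO cells. No class had a ratio whose interval excluded 1, and in cone-like cells the summed ratio was 0.875 (0.589 to 1.31).

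Within classes, genotype ratios were small for the sum and went both ways. The summed ratio was 0.878 (0.860 to 0.897) in Müller-like, 0.952 (0.920 to 0.986) in rod-like and 0.845 (0.737 to 0.966) in bipolar-like cells. It was 1.10 (1.07 to 1.13) in RPC-like, 1.18 (1.10 to 1.26) in amacrine-like and 1.08 (1.01 to 1.15) in microglia-like cells. It was 1.01 in both neurogenic precursor-like and cone-like cells, with intervals that held 1. The bipolar-like value turned to 1.43 with classes cut at a finer clustering and to 1.04 when each cell was classed by its own marker score. The amacrine-like value was 0.884 in Mettl3-CKO cells without Xist, and the microglia-like value 1.52 and 0.951 in the first and second parts of the file. These intervals carry no spread between animals or between cells, and counts this large make them narrow.

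In Müller-like cells Dusp1 differed most. It was at 332 CPM (311 to 355) in Control and 217 CPM (195 to 240) in Mettl3-CKO, a ratio of 0.653 (0.576 to 0.738), and it was the only one of 7 genes with at least 50 UMIs past 1.5-fold, where 14.1% of all genes tested there were. In the same cells Fos, Jun and Ier2 had ratios of 0.866, 0.895 and 0.831, and Egr1, Junb and Zfp36 had intervals that held 1. The first and second parts of the cells in file order gave Dusp1 ratios of 0.469 (0.386 to 0.566) and 0.882 (0.744 to 1.04). These intervals do not overlap, so spread within the libraries went beyond counting error. The ratio was 0.727, short of 1.5-fold, both with the finer clustering and when each cell was classed by its own marker score. In neurogenic precursor-like cells Dusp1 was at 218 and 167 CPM, a ratio of 0.766 (0.684 to 0.859), and in rod-like cells at 129 and 107 CPM, a ratio of 0.828 (0.732 to 0.936).

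Dusp1 stood the other way round in 3 neuronal classes. Its ratio was 1.84 (1.23 to 2.81) in cone-like, 1.68 (1.19 to 2.40) in amacrine-like and 1.65 (1.10 to 2.42) in bipolar-like cells, from 33, 50 and 85 UMIs in Control and 104, 103 and 41 in Mettl3-CKO. The cone-like ratio was 0.497 in Mettl3-CKO cells without Xist, 0.917 in the second part of the file and 1.15 when each cell was classed by its own marker score. The amacrine-like ratio was 1.09 without Xist, and the bipolar-like ratio was 1.27 with the finer clustering. Past 1.5-fold were 1 of 7 genes in cone-like cells, where 11% of all genes tested were, and 2 of 6 in amacrine-like cells, where 12.3% were. In bipolar-like cells 2 of 5 were, against 16.9%. The second amacrine gene was Fos, at 711 CPM in Control and 1127 CPM in Mettl3-CKO, a ratio of 1.59 (1.40 to 1.80), which was 0.83 in Mettl3-CKO cells without Xist and 1.4 when each cell was classed by its own marker score. The second bipolar gene was Egr1, at 146 and 96.3 CPM, a ratio of 0.659 (0.423 to 0.992) from 145 and 28 UMIs, which became 1.84 with the finer clustering and 1.02 by marker score.

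Zfp36 was past 1.5-fold in the neurogenic precursor-like and RPC-like classes. It had 35 UMIs in Control and 101 in Mettl3-CKO neurogenic precursor-like cells, at 12.2 and 28.5 CPM, a ratio of 2.33 (1.57 to 3.53). RPC-like cells had 14 and 56 UMIs, at 8.45 and 22.1 CPM, a ratio of 2.61 (1.43 to 5.08). It was the only gene of 7 past 1.5-fold in either class, where 9% and 11.6% of all genes tested were. With the finer clustering the ratio was 2.62 in RPC-like cells. It was 1.09 (0.421 to 2.87) in neurogenic precursor-like cells, where most of the class had another name and only 69 and 72 cells had this one. As a mean of per-cell CPM it was 2.41 and 1.31, so neither call held under every alternative. Junb in RPC-like cells came next, at 140 and 199 CPM, a ratio of 1.42 (1.21 to 1.66).

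In microglia-like cells Ier2 was at 376 and 651 CPM, a ratio of 1.73 (1.32 to 2.29), and it was the only one of 8 genes past 1.5-fold, where 19.1% of all genes tested were. The first and second parts of these 34 and 30 cells in file order gave 2.89 and 1.3. In rod-like cells none of 7 passed, where 5.26% did, and the lowest and highest ratios were 0.786 (0.733 to 0.842) for Jun and 1.32 (1.12 to 1.55) for Egr1. Atf3 had too few UMIs for the 1.5-fold comparison outside microglia-like cells. Its 27 UMIs in Control and 8 in Mettl3-CKO neurogenic precursor-like cells gave a ratio of 0.239 (0.0940 to 0.542).

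**Figure D2:**
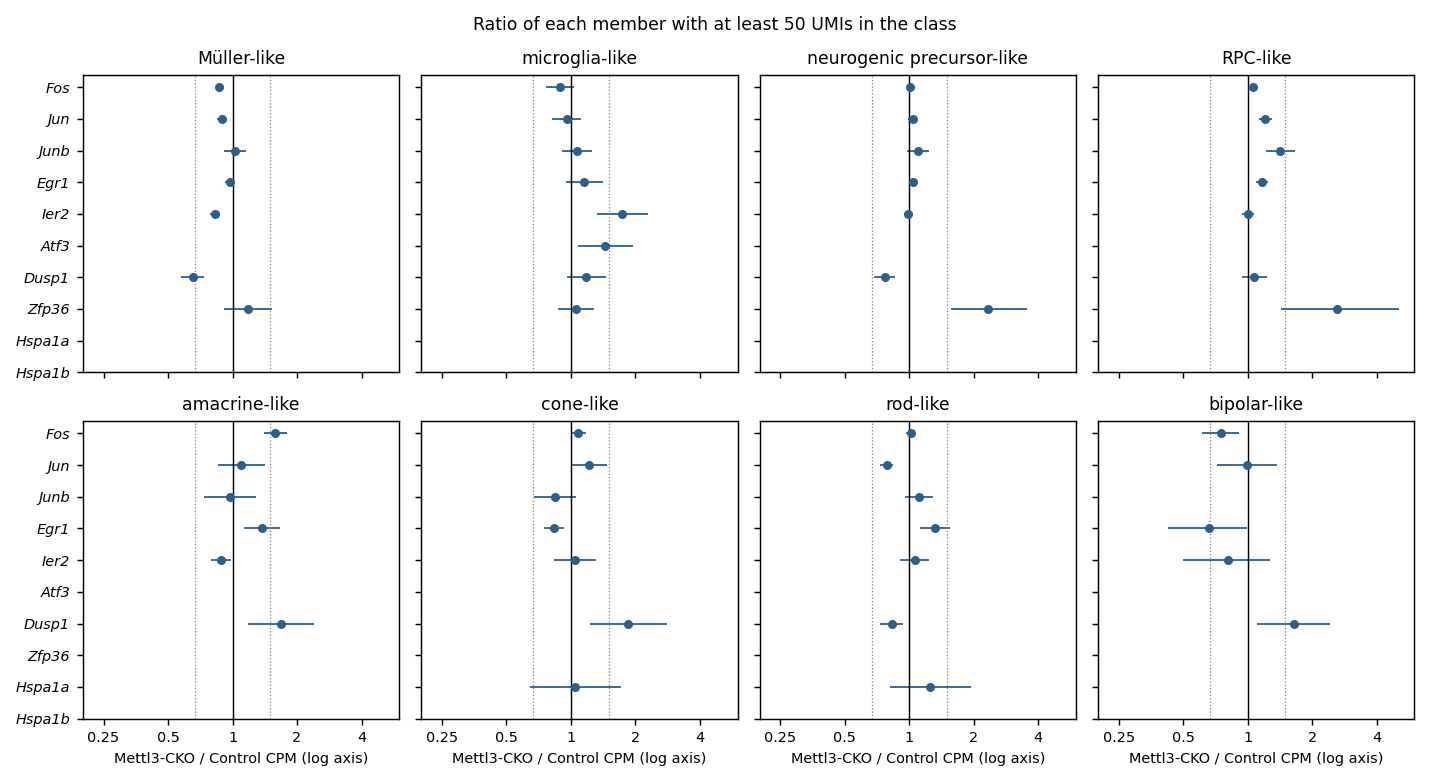
Mettl3-CKO level over Control level for each gene with at least 50 UMIs in a class (log axis), with exact 95% intervals for counting error, a solid line at 1 and dotted lines at 1.5-fold. Dusp1 lies below 1 in Müller-like cells (0.653) and above 1 in cone-like (1.84), amacrine-like (1.68) and bipolar-like cells (1.65), and Zfp36 lies above 1 in RPC-like (2.61) and neurogenic precursor-like cells (2.33).

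Cells of 1 class did not carry these transcripts evenly. At 1000 UMIs a cell, the median number of immediate early UMIs was 8 in Control and 7 in Mettl3-CKO Müller-like cells, 5 and 5 in RPC-like and 1 and 1 in rod-like cells. UMIs of at least 3 of the 8 genes were found in 64.9% and 62.2% of Müller-like, 52.3% and 54.3% of neurogenic precursor-like and 5.71% and 3.74% of rod-like cells. Microglia-like cells ranged from none to 18 such UMIs in both libraries: 50% of 22 Control and 35% of 20 Mettl3-CKO cells had no immediate early UMI, while 36.4% and 40% had 3 or more of the genes. Across single cells, as a description in which the points share a library and differ in depth, log levels of Fos and Egr1 correlated with Pearson's r of 0.859 and 0.778 in Müller-like cells (372 and 234 cells) and 0.875 and 0.922 in microglia-like cells (34 and 30 cells). In rod-like cells (1312 and 768 cells) r was 0.201 and 0.173.

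**Figure D3:**
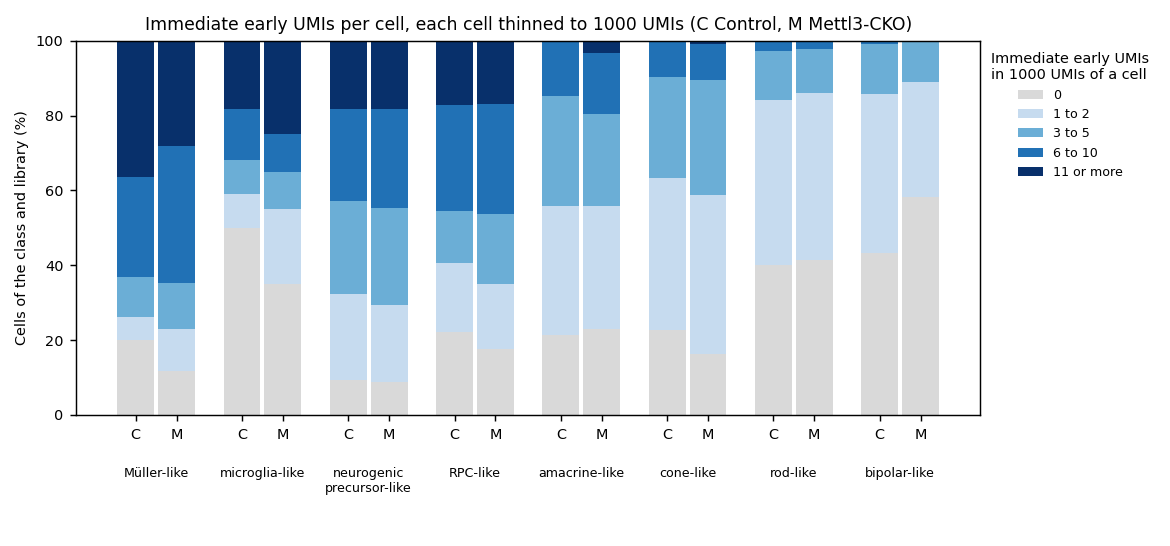
Share of cells of each class and library (percent, stacked to the whole) by the number of UMIs of the 8 immediate early genes after each cell was thinned to 1000 UMIs. Rod-like and bipolar-like cells mostly hold 0 to 2. Part of the RPC-like, neurogenic precursor-like, Müller-like and microglia-like cells hold 11 or more, as do a few amacrine-like, cone-like and rod-like cells. Of Control microglia-like cells, 50% hold 0.

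Clusters of low depth carried less of these transcripts per UMI than deep clusters of the same name. The main Müller-like cluster, with a median of 9452 UMIs, was at 10513 CPM in Control, and the Müller-like cluster with a median of 1321 UMIs was at 927 CPM, 11.3-fold (9.93 to 13) lower. In Mettl3-CKO they were at 9266 and 1137 CPM, 8.15-fold (6.80 to 9.85) apart. The RPC-like clusters with medians of 12318 and 1208 UMIs were at 6407 and 453 CPM in Control and at 6278 and 1600 CPM in Mettl3-CKO. The low RPC-like cluster therefore had a ratio of 3.53 (2.77 to 4.53) from 97 and 231 UMIs, the highest of the 24 clusters, and without clusters of a median under 2000 UMIs the RPC-like ratio was 1.01 in place of 1.10. The lowest level of all was in a rod-like cluster with a median of 1661 UMIs and a median mitochondrial share of 17.3%, at 384 and 317 CPM. Low depth did not always go with a low level: an unnamed cluster with a median of 852 UMIs and a mitochondrial share of 14.1% held 5691 and 6841 CPM. Whether depth or cell integrity plays a part was not tested.

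**Figure D4:**
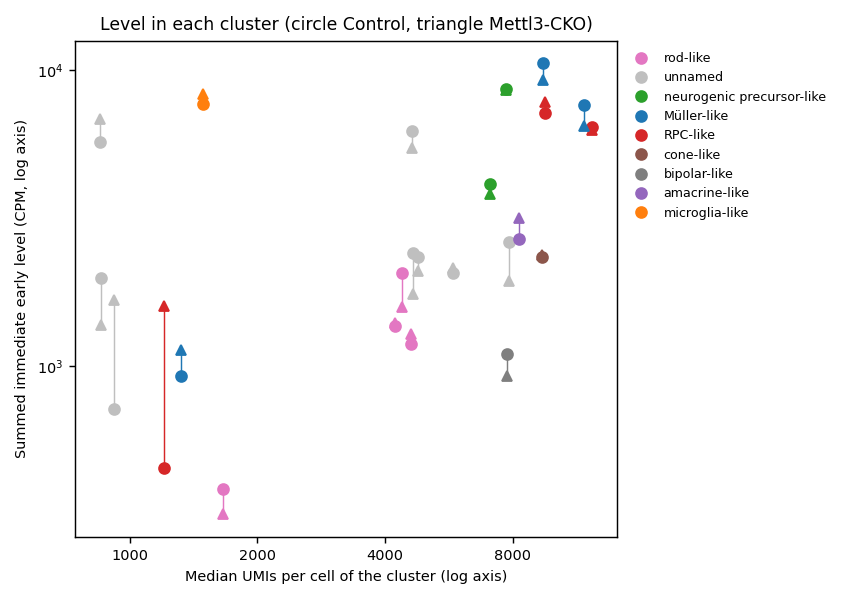
Summed level of the 8 immediate early genes (CPM, log axis) against the median UMIs per cell (log axis) of the 24 clusters, with circles for Control, triangles for Mettl3-CKO and a line joining the libraries of a cluster. The low-depth Müller-like and RPC-like clusters (927 and 453 CPM in Control) lie far below the deep clusters of those names (10513 and 6407 CPM).

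Within the Mettl3-CKO library the level differed with Xist. Among its cells of at least 4000 UMIs, the summed level was 3720 CPM in the 1400 cells with an Xist UMI and 4791 CPM in the 770 without, a ratio of 0.776 (0.765 to 0.788). Against Control cells of that depth the ratio was 0.868 with and 1.12 without Xist, around 0.953 for both together. In neurogenic precursor-like cells, the cells with Xist were at 5824 CPM and those without at 6859 CPM, which put their ratios to Control on either side of 1, at 0.937 and 1.10. Müller-like (ratio 0.914) and bipolar-like cells (0.764) were also lower with Xist. The order was the other way in cone-like (1.29, 1.18 to 1.42), amacrine-like (1.39, 1.21 to 1.60) and rod-like cells (1.09, 1.02 to 1.17), from 27, 10 and 159 cells without Xist. RPC-like cells were at 6611 CPM with and 6601 CPM without Xist, a ratio of 1 (0.970 to 1.03). A cell without an Xist UMI can come from a male pup or be a female cell in which none was captured, so the groups are not pups, and they also differed in their mix of classes. Dusp1 in Müller-like cells was below Control in both, with ratios of 0.624 and 0.664.

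**Figure D5:**
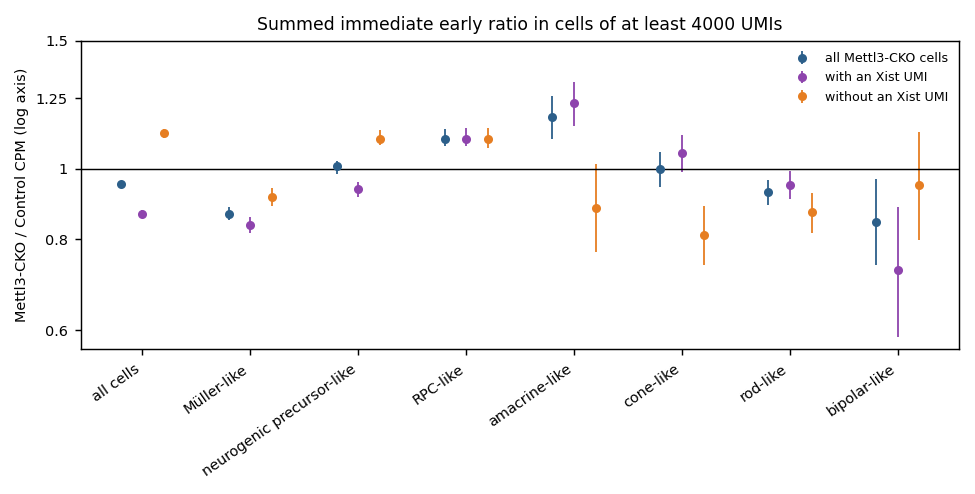
Ratio of the summed immediate early level to Control cells, all of at least 4000 UMIs (log axis), for all Mettl3-CKO cells and for those with and without an Xist UMI, with exact 95% intervals for counting error. Over all cells the ratio is 0.868 with and 1.12 without Xist, and in RPC-like cells all 3 points coincide at 1.10.

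Other genes of the pathway, from lists drawn up beside the 10 genes, were also mostly within 1.5-fold over all cells, where 5 of the genes in 8 lists passed, against 8.55% of all genes tested. None of 6 other AP-1 genes, 11 genes of the Zfp36 family and mRNA decay, 17 constitutive or organelle chaperones and 16 upstream factors and kinases did. Of 32 other immediate early genes, Cebpd was higher in Mettl3-CKO at a ratio of 1.69 (1.44 to 1.99) and Myc lower at 0.559 (0.373 to 0.827). Myc had 77 and 41 UMIs, most of them in unnamed clusters, and at most 6 in any named class of a library. Of 9 dual-specificity phosphatases, relatives of DUSP1, Dusp10 was lower at 0.527 (0.434 to 0.638), and Dusp8 was at 0.700 (0.667 to 0.735). Of 19 heat shock factor targets, Cryab, a small heat shock protein, was lower at 0.522 (0.445 to 0.611). In Müller-like cells, which held 274 of its 479 Control and 135 of its 238 Mettl3-CKO UMIs, Cryab was at 103 and 80.2 CPM. In rod-like cells it was at 5.23 and 5.71 CPM, so the drop was smaller or absent in these classes. Cells of unnamed clusters held far fewer Cryab UMIs in Mettl3-CKO than in Control, so part of the drop lay outside the named classes. What part the makeup of the libraries plays was not tested. In the same list Hspb1 was at 1.42 (1.06 to 1.91) and Hsph1 at 1.20 (1.10 to 1.31). Of 10 integrated stress response genes, Sesn2, a leucine-sensing target of ATF4, was higher at 2.64 (1.96 to 3.61), from 62 and 156 UMIs.

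The genes whose level followed the immediate early sum most closely over classes were not all of that family. Over 16 points (8 classes in 2 libraries, which share depth and preparation), St5, Mt2, Suclg2, Klf3 and Mtap had the highest Pearson's r of log2(CPM + 1) among 10874 genes, from 0.954 to 0.961, and Mt2 is a metallothionein. Among the members, r with the sum was 0.911 for Fos, 0.910 for Egr1 and 0.892 for Jun, whose own counts enter the sum. It was 0.693 for Dusp1 and 0.623 for Atf3, and it was negative for Hspa1a (-0.336) and Hspa1b (-0.221), which do not enter it.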

How the data were processed

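Retinas of 2 genotypes were profiled as 1 pooled 10x 3′ v3.1 library each. The authors aligned reads to GRCm38 (mm10) with Cell Ranger 3.1.0 after fastp, and removed mitochondrial genes in their own tables, which used Seurat 3.1. The deposited values used here are raw UMI counts per gene and cell. The matrices as read end before the size they state, so only complete cells entered: 3994 of 5995 Control barcodes and 3109 of 6992 Mettl3-CKO barcodes, and the other cells were not analysed here. The 13 mitochondrial genes were taken out of totals (5.53% and 4.19% of UMIs), leaving 20955138 and 19957693 UMIs.

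Cells were clustered with Python 3.11.15 (2000 variable genes without the members and related lists, 10 components, 20 neighbours, Leiden resolution 1 with leidenalg 0.10.2) and named from fixed markers, needing at least 3 markers at 1.5-fold in 20% of cells. No doublet was removed from the main values. Scrublet (scanpy 1.11.5) marked 1.50% and 0.257% at its automatic threshold, which is too few to have worked, so the 5% highest scores per library were left out as an alternative. A gene was called past 1.5-fold with at least 50 UMIs over both libraries. From each list the 2 highest and 2 lowest ratios whose interval excluded 1 could be named, with the 10 members and the 5 genes most like their sum among genes of at least 200 UMIs. The ratio and its interval were run on simulated library sums drawn from a Poisson model, which the interval itself assumes. That run checks the calculation only, as it held no spread between cells or animals. The members and lists were chosen with earlier results of these data known.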

Additional observations from a re-analysis of the deposited data

Results flagged for a closer look

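Dusp1 differed from Control in opposite directions in different classes. Its ratio of Mettl3-CKO to Control level was 0.653 in Müller-like cells and 1.84 in cone-like, 1.68 in amacrine-like and 1.65 in bipolar-like cells, each past 1.5-fold with an interval for counting error that excluded 1. The difference between classes was not tested, as there was 1 library per genotype. The Müller-like value lay between 0.469 and 0.882 over the alternatives. The Müller-like value was 0.727, short of 1.5-fold, at Leiden resolution 2 and when each cell was classed by its own marker score. The cone-like value lay below 1 in 2 alternatives (0.497 and 0.917). The amacrine-like value was 1.09 in cells without Xist and the bipolar-like value 1.27 at resolution 2, both short of 1.5-fold.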

How the results depend on the processing

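No paired analysis was possible because there was 1 library per genotype and the labels give no replicate numbers. Each alternative recomputed the ratio of Mettl3-CKO to Control level; a value within the counting interval of the reported one was taken as the same, and the cause of any change was not tested. Of the summed and list results, 147 values were the same and 50 moved. This count mixes the immediate early sum, whose intervals are narrow, with the Hspa1a and Hspa1b sum, whose wide intervals few values could leave. Nearly all values that moved were of the immediate early sum. Over all cells the summed immediate early ratio was 0.979 with median-of-ratios scaling, 1.10 as a mean of per-cell CPM, 0.985 in cells meeting the filter of the study, 0.953 in cells of at least 4000 UMIs, 0.868 with and 1.12 without Xist, and, as alternatives chosen after seeing the data, 0.964 without clusters of a median under 2000 UMIs and 0.931 at the Control makeup. In Müller-like cells it was 0.926 at Leiden resolution 2, 0.900 with cells named by their own markers, 0.837 with and 0.915 without Xist, 0.853 without low-UMI clusters, 0.906 without the highest Scrublet scores, 0.916 per cell, 0.836 with median-of-ratios scaling, and 0.826 and 0.927 in the first and second parts of the file. In RPC-like cells it was 1.01 without low-UMI clusters and 1.07 with median-of-ratios scaling. In neurogenic precursor-like cells it was 0.958 at resolution 2, 0.991 by own markers, 0.937 with and 1.10 without Xist, 1.03 per cell, and 0.940 and 1.08 in the parts of the file. In rod-like cells it was 1.02 at resolution 2, 1.01 by own markers, 0.871 without Xist, 0.919 without low-UMI clusters, and 0.992 and 0.914 in the parts of the file. In cone-like cells it was 0.810 without Xist, 0.946 without the highest Scrublet scores, and 1.09 and 0.95 in the parts of the file. In amacrine-like cells it was 0.884 without Xist and 1.30 per cell. In bipolar-like cells it was 1.43 at resolution 2, 1.04 by own markers and 0.725 with Xist. In microglia-like cells it was 0.153 in the 2 cells with Xist, 1 in cells of at least 4000 UMIs, 1.35 per cell, and 1.52 and 0.951 in the parts of the file. The Hspa1a and Hspa1b sum moved only in Müller-like cells, to 6.55 in the first part of the file. Its intervals were wide in most classes, as in bipolar-like cells (0.457 to 25.5), so a value that stayed the same says little.

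The direction of a ratio past 1.5-fold reversed in 5 cases: Dusp1 in cone-like cells (0.497 without Xist, 0.917 in the second part of the file), Egr1 in bipolar-like cells (1.84 at resolution 2, 1.02 by own markers) and Fos in amacrine-like cells (0.830 without Xist). Of the genes of the other lists, 5 passed 1.5-fold, also with median-of-ratios scaling and without microglia-like cells, 1 passed 2-fold, and 11 passed 1.5-fold among genes of at least 1 UMI. With 1 library per genotype, the spread between animals is unknown, and genes with few UMIs, above all Hspa1a, Hspa1b and Atf3, limit what a class can show.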

Other observations

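Fosb, an AP-1 subunit outside the set of 10 genes, was level between libraries in Müller-like cells, at 786 CPM in both. In RPC-like cells it was at 482 CPM in Control and 673 CPM in Mettl3-CKO, and in neurogenic precursor-like cells at 360 and 504 CPM. In microglia-like cells the order was the other way, at 554 and 410 CPM from 118 and 102 UMIs. Cryab, the lens and glial small heat shock protein, was at 103 CPM in Control and 80.2 CPM in Mettl3-CKO Müller-like cells, and at 11.9 and 12.4 CPM in neurogenic precursor-like cells.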
